A study of Homo sapiens with 10 samples.

Results

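The 39 human HOX genes lie in 4 clusters and encode homeodomain transcription factors. They were taken from the RefSeq annotation of GRCh38 as all protein-coding genes named HOXA, HOXB, HOXC or HOXD with a number, 39 of 19970 protein-coding genes on chromosomes 1 to 22 and X, with 11 genes in HOXA, 10 in HOXB, 9 in HOXC and 9 in HOXD. The measurement was DRIP-seq in U2OS cells, a human osteosarcoma cell line: sonicated nucleic acids from nuclei without crosslinking were pulled down with S9.6, an antibody that binds RNA-DNA hybrids, and sequenced. The SCAN1 libraries came from lines carrying TDP1 H493R, named SCAN1#1 (replicates 1 and 2) and SCAN1#2 (replicate 2), and the WT libraries (replicates 1 and 2) from cells with unaltered TDP1. This amino acid change in TDP1, an enzyme that removes trapped topoisomerase I from DNA, underlies the inherited ataxia SCAN1. No group had a drug or other treatment in the labels. Replicate 1 is experiment 1 and replicate 2 is experiment 2, each with its own antibody lot. The labels do not say whether the SCAN1 lines are single clones or whether replicates were separate cultures, so any p-value measures the spread between these 5 libraries only.

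Each HOX gene, extended by 1 kb at both ends, was given the percent of its bases under DRIP peaks in each library. The 63456 peaks of highest −log10 p were taken from every library, the number in the shortest list, since the deposited lists held 63456, 110745 and 89932 peaks for SCAN1#1 replicates 1 and 2 and SCAN1#2 and 82545 and 89445 for WT replicates 1 and 2. These equal lists did not share a threshold, as the lowest −log10 p used was 3.87, 9.92 and 7.75 in the SCAN1 and 6.13 and 7.69 in the WT libraries, in the same order. Read depth is unknown, so no counting interval was available. In bulk libraries, fewer cells with a hybrid at a site and less hybrid per cell cannot be told apart, and the peaks have no strand. Of 11 mesenchymal and osteoblast markers, 9 had a peak in all 5 libraries, whereas COL1A2 and TWIST1 were at 0. Of 11 epithelial, blood and neuronal markers, 7 had a peak in all 5, and KRT18 was covered over 94.3% to 100%, so peaks alone did not separate the lineages.

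HOX genes specify position along the body axis. Their order along each cluster matches the order in which they are used from head to tail, and genes at the same position in different clusters, called a paralogue group, are copies of one ancestral gene. Cells keep parts of the clusters active and silence the rest, with Polycomb proteins holding genes off and Trithorax proteins holding them on. RNA-DNA hybrids, or R-loops, form mainly where RNA is made and often at long unmethylated CpG islands, and several long noncoding RNAs and microRNAs are transcribed between the HOX genes.

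Peaks were spread very unevenly over the clusters, with HOXB and HOXC heavily covered, HOXA covered at a few points and HOXD nearly empty. Over the 9 HOXC genes the mean covered share was 21.9%, 17.1% and 17.1% in SCAN1#1 replicates 1 and 2 and SCAN1#2, and 34.4% and 21.1% in WT replicates 1 and 2. The 10 HOXB genes averaged 23.5%, 15.9% and 13.2% in the same SCAN1 libraries and 25.3% and 15.3% in the WT libraries. The 11 HOXA genes were lower, at 6.07%, 3.49% and 6.63% in SCAN1 and 5.46% and 7.10% in WT libraries. The 9 HOXD genes were lowest in each library, at 0%, 1.204% and 0.312% in SCAN1 and 2.52% and 1.53% in WT libraries. The ranges of HOXB and HOXC overlapped, and every library put both above HOXA and HOXA above HOXD.

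**Figure D1:**
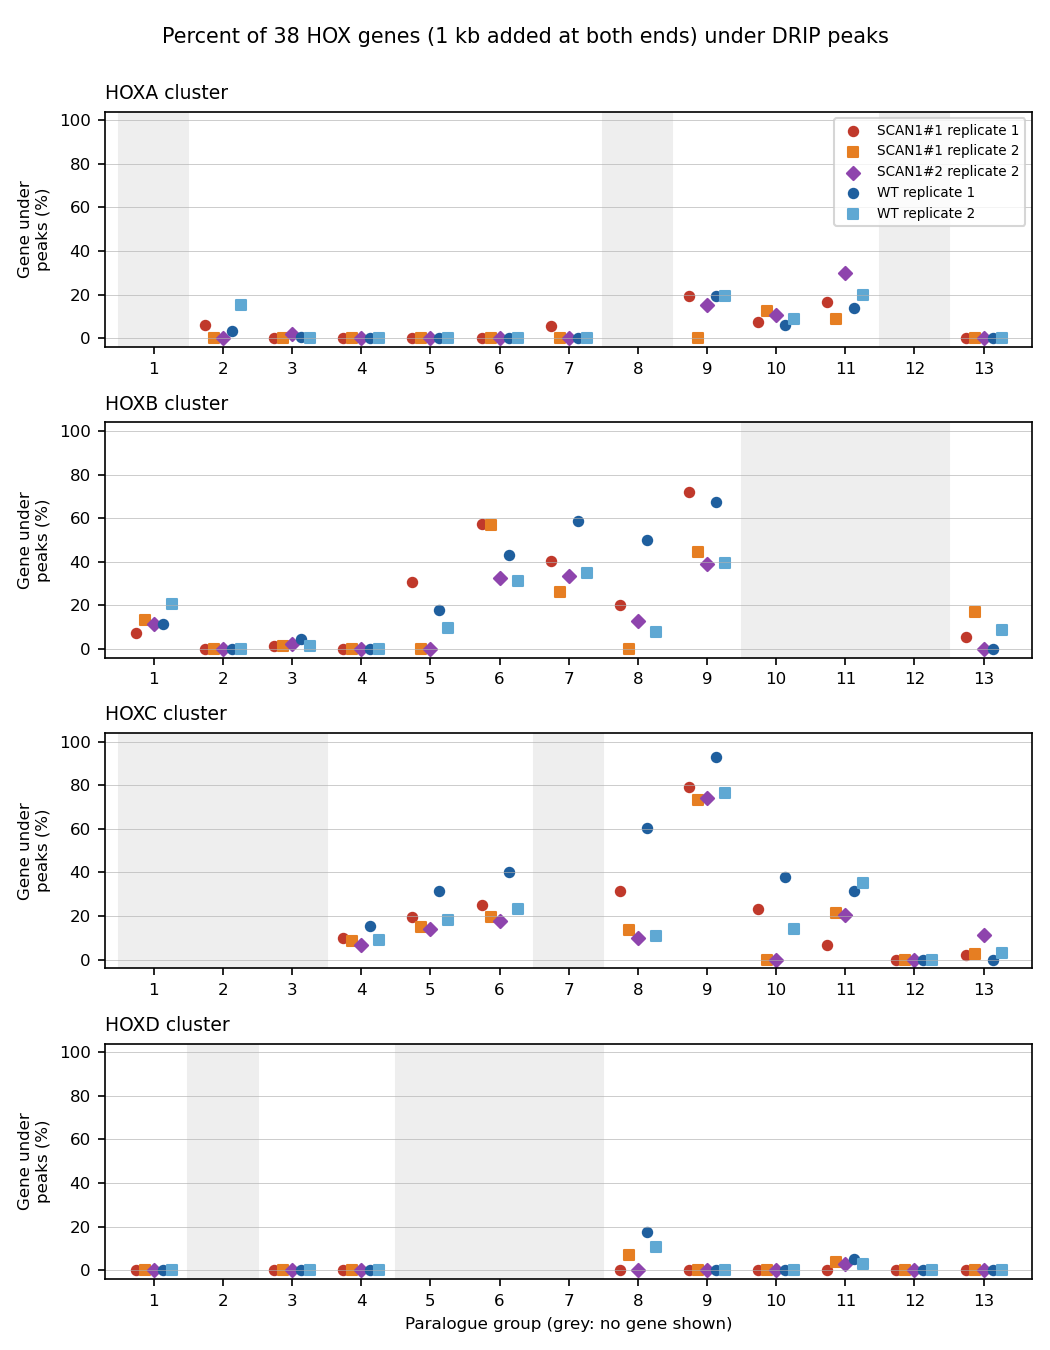
Percent of 38 of the 39 HOX genes (1 kb added at both ends) under DRIP peaks, by cluster, with 1 point for each of the 5 libraries and SCAN1 libraries left of WT. HOXC9 reaches 73.3% to 92.7%, while 7 of 9 HOXD genes stay at 0 in every library.

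A peak was found in 25 of the 39 genes in at least 1 library and in 14 genes in all 5 libraries. The number of HOX genes with a peak was 22, 18 and 19 in SCAN1#1 replicates 1 and 2 and SCAN1#2, and 22 and 23 in WT replicates 1 and 2. No library had a peak in HOXA4, HOXA5, HOXA6, HOXA13, HOXB2, HOXB4, HOXC12, HOXD1, HOXD3, HOXD4, HOXD9, HOXD10, HOXD12 or HOXD13. With the lists as deposited, 10 genes stayed without any peak.

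Set against all protein-coding genes of any length, fewer HOX genes carried a peak but their mean covered share was higher. The share with a peak was 46.2% to 59.0% of HOX genes over the 5 libraries and 61.1% to 65.6% of all protein-coding genes. The mean covered share was 9.28% to 16.6% for HOX genes and 6.54% to 9.08% for all. HOX genes are short, with a median length of 3785 bases against 24190 for all protein-coding genes, and short genes without a peak and with a large covered share are both common. The 33 HOX genes under 10 kb averaged 9.64% to 16.8%, and all 5655 protein-coding genes under 10 kb averaged 13.04% to 17.05%. Of the HOX genes under 10 kb, 42.4% to 57.6% had a peak, compared with 40.4% to 44.1% of all genes of that length. Among genes of that length both relations thus turned around. In each library the HOX genes had the lower mean and more often had a peak, though in some by little. The share with a peak was 42.4% against 41.8% in SCAN1#1 replicate 2 and 42.4% against 42.2% in SCAN1#2. The mean was 16.75% against 16.92% in WT replicate 1. These values are descriptions, as neighbouring HOX genes share peaks.

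**Figure D2:**
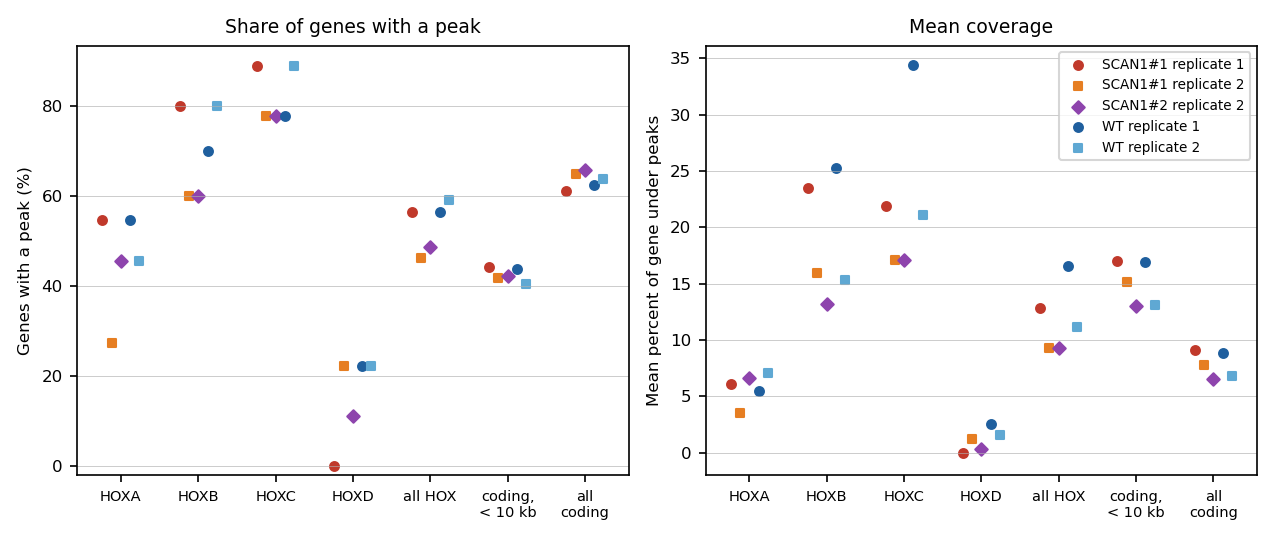
Share of genes with a peak and mean percent covered in each library, for HOX genes, all protein-coding genes and protein-coding genes under 10 kb. HOX genes lie below all protein-coding genes in the share with a peak in every library (46.2% to 59.0% against 61.1% to 65.6%). They lie above protein-coding genes under 10 kb in that share (40.4% to 44.1%), though the HOX points hold all 39 genes, of any length. The 33 HOX genes under 10 kb, not plotted, were at 42.4% to 57.6%.

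Counted once along each cluster, from the first to the last HOX gene, the clusters divided in the same way. The HOXB span (chr17:48528526-48728750, 200.2 kb) was covered over 10.7% to 16.9% by 18 to 31 peaks and the HOXC span (chr12:53938831-54056030, 117.2 kb) over 12.9% to 23.5% by 9 to 25 peaks. The HOXA span (chr7:27092993-27200091, 107.1 kb) was covered over 4.72% to 6.77% by 6 to 12 peaks. The HOXD span (chr2:176087487-176190907, 103.4 kb) was covered over 0.341% to 1.58% by 1 to 4 peaks. In the 100 kb on each side, coverage was 1.81% to 4.68% around HOXB, 1.02% to 2.53% around HOXC, 0.753% to 0.951% around HOXA and 0% to 0.967% around HOXD. The strongest peak in a HOXB span had a fold enrichment over the caller's background of 15.7 to 24.1, the authors' own value, which placed it at percentile 98.2 to 98.8 of all peaks of its library. In SCAN1#2 (24.1) and WT replicate 1 (16.2) this peak lay in a region that overlapped no HOX gene (chr17:48645620-48647842). In the HOXD span the strongest peak had 5.43 to 11.2, at percentile 34.6 to 87.1, and in the SCAN1 libraries it overlapped no HOX gene.

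The peaks of the 5 libraries merged into 85 regions in the 4 spans, of which 53 overlapped a HOX gene. A peak of every library was present in 14 regions, 6 of HOXB, 5 of HOXC, 3 of HOXA and 0 of HOXD, and 33 regions were seen in 1 library each. The 3 SCAN1 libraries alone shared 1 region, inside HOTAIRM1 in HOXA, and the 2 WT libraries alone shared 1, in the HOXC4, HOXC5 and HOXC6 genes. By comparison, 8 regions were found in both libraries of experiment 1 and in none of experiment 2, and 1 in all 3 libraries of experiment 2 alone.

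**Figure D3:**
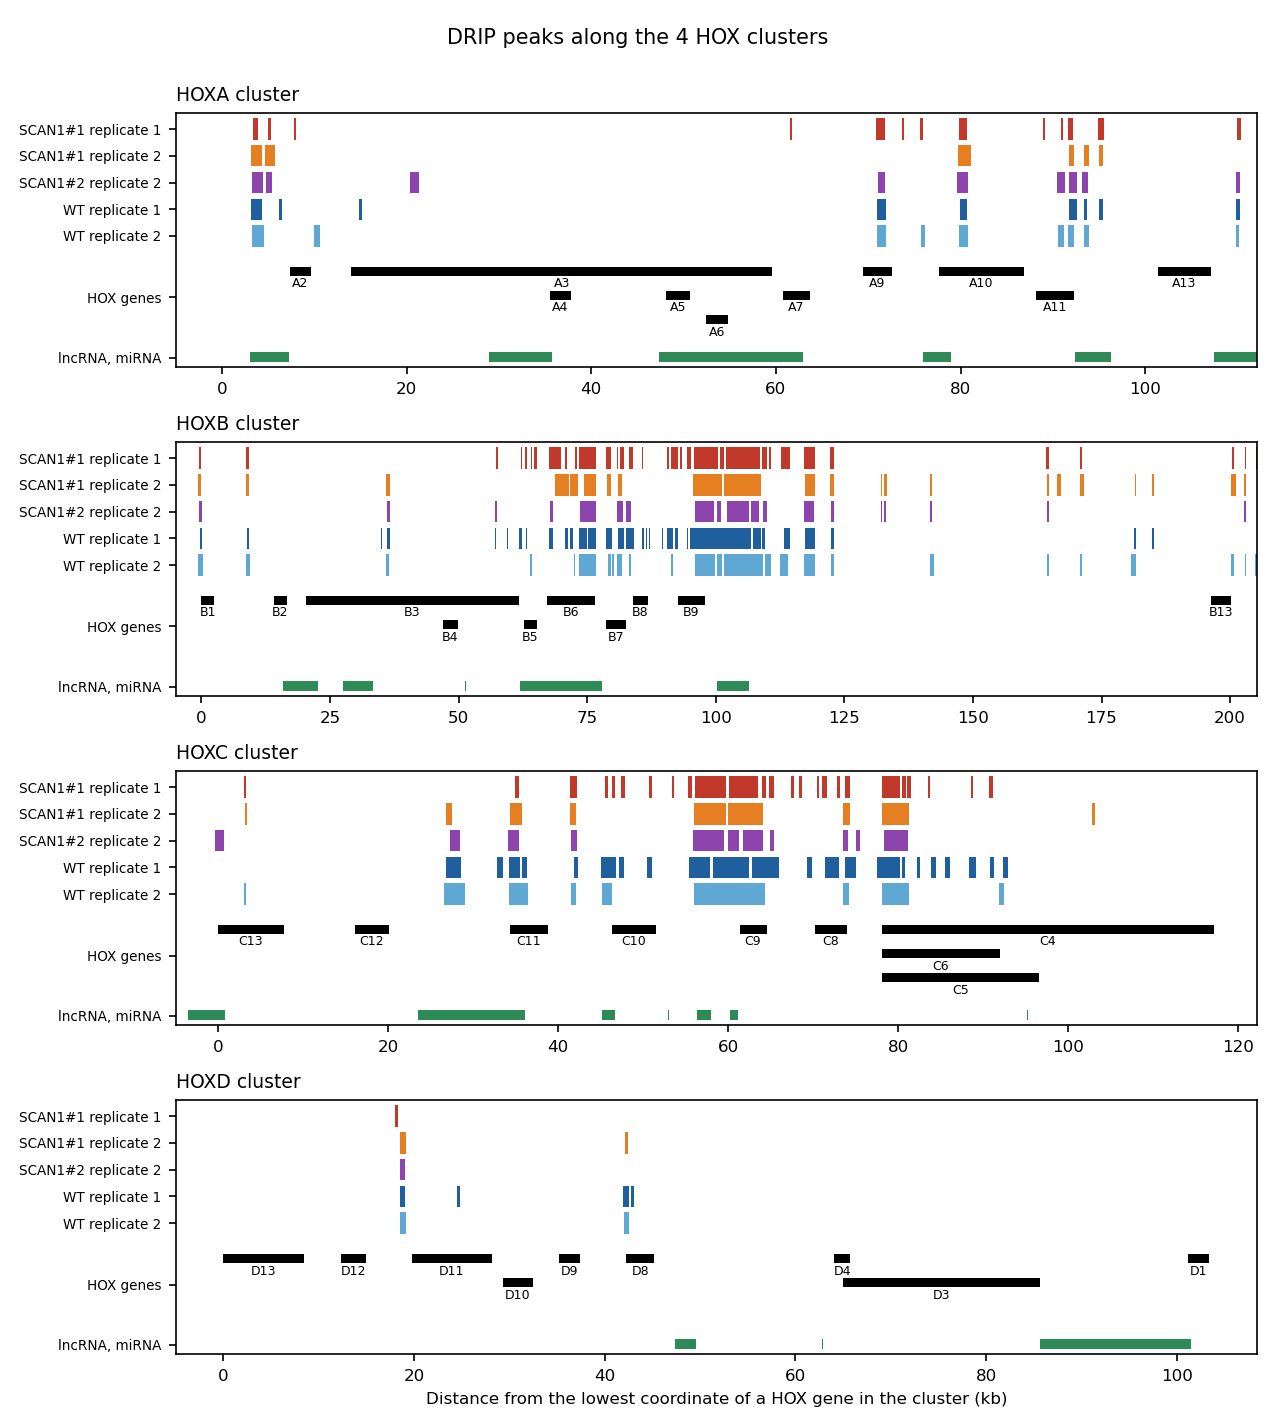
Peaks along the 4 HOX clusters in each library (3 SCAN1 rows above 2 WT rows), with 38 HOX genes in black and noncoding RNA genes in green, by distance from the lowest coordinate of a HOX gene in kb. The long blocks lie around HOXB9 in HOXB and HOXC9 in HOXC, and HOXD holds 1 to 4 peaks in a library.

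In HOXC the cover was centred on HOXC9, a posterior gene of the limb and trunk programme. HOXC9 (chr12:54000161-54003337) was covered over 79.1%, 73.3% and 74.0% in SCAN1#1 replicates 1 and 2 and SCAN1#2, and over 92.7% and 76.5% in WT replicates 1 and 2. It was the most covered HOX gene in all 5 libraries, at percentile 98.5 of all protein-coding genes by its mean. HOXC9 lay in a merged region of 10649 bases (chr12:53994136-54004784) together with the antisense RNA genes HOXC-AS1 and HOXC-AS2. Within it 8380, 7851 and 7853 bases were covered in the SCAN1 and 9893 and 8286 in the WT libraries, and in WT replicate 2 a single peak held all 8286 bases. The highest fold enrichment there was 11.7, 12.2 and 11.6 in the SCAN1 and 12.6 and 15.0 in the WT libraries.

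A second block of HOXC lay at the common start of HOXC4, HOXC5 and HOXC6, which RefSeq places at base 54016888 of chromosome 12 for all 3 genes. The merged region (chr12:54016372-54020388) held 3029, 3097 and 2838 covered bases in the SCAN1 and 3001 and 3122 in the WT libraries. Its fold enrichment was 14.01, 20.6 and 16.4 in SCAN1 and 12.8 and 19.7 in WT libraries. The values of the 3 genes therefore rest largely on the same bases, differ mainly through their lengths and are not independent. Covered bases of this block were nearly equal between libraries. The larger values of WT replicate 1 came with weaker peaks downstream, inside all 3 genes. Examples are 825 bases at chr12:54027172-54027996 (fold enrichment 4.22) and 569 bases at chr12:54024345-54024913 (4.13). SCAN1#1 replicate 1 had 259 and 0 bases there, and the libraries of experiment 2 had 0 in both. HOXC6, the shortest of them, was covered over 25.2%, 19.4% and 17.8% in SCAN1 and 40.3% and 23.2% in WT libraries. HOXC5 ranged from 13.9% to 31.4% and HOXC4, which is 39143 bases long, from 6.90% to 15.6%.

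The other HOXC genes varied more between libraries. HOXC8, a trunk gene, was covered over 31.5%, 13.6% and 9.92% in SCAN1 and 60.5% and 10.7% in WT libraries, so that both libraries of experiment 1 were above all 3 of experiment 2. HOXC11, a posterior gene that overlaps HOTAIR, had 6.89%, 21.3% and 20.7% in SCAN1 and 31.6% and 35.03% in WT libraries, without overlap between the groups. Its covered bases lay in regions that also overlap HOTAIR, and without strand the reads of the pair cannot be told apart. HOXC10 had 23.03%, 0% and 0% in SCAN1 and 37.7% and 13.9% in WT libraries. Its zeros belonged to the equal lists, since the lists as deposited gave 23.03%, 4.58% and 5.48% in SCAN1 and 41.8% and 13.9% in WT. HOXC13, a gene of hair and nail formation at the far end, was at 0% to 11.1%, and HOXC12 had no peak.

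In HOXB the peaks ran from HOXB5 to beyond HOXB9. HOXB9 (chr17:48621156-48626358), the posterior gene at that edge, was covered over 72.0%, 44.6% and 38.9% in the SCAN1 and 67.2% and 39.4% in the WT libraries. It overlapped the longest merged region of the clusters, 16462 bases (chr17:48622896-48639357), which also held HOXB-AS4, MIR196A1 and part of LINC03057. The libraries covered 14490, 12821 and 10945 of these bases in SCAN1 and 14246 and 13813 in WT, with fold enrichments up to 15.7, 21.6 and 19.8 in SCAN1 and 12.2 and 17.5 in WT.

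HOXB6 (chr17:48595751-48604986), a gene also used in blood progenitors, was covered over 57.1%, 57.02% and 32.7% in SCAN1 and 43.1% and 31.2% in WT libraries. HOXB6 overlaps HOXB-AS3, a noncoding RNA gene, and without strand the reads of the pair cannot be told apart. HOXB7 (chr17:48607232-48611017) had 40.6%, 26.0% and 33.7% in SCAN1 and 58.6% and 34.9% in WT libraries. HOXB8 had 20.4%, 0% and 12.9% in SCAN1 and 50.1% and 7.66% in WT libraries, and HOXB5 had 30.7%, 0% and 0% in SCAN1 and 17.9% and 9.48% in WT libraries. In HOXB5, HOXB6, HOXB7, HOXB8 and HOXB9 the experiment 1 library of each genotype was above its experiment 2 libraries. For SCAN1#1 in HOXB6 this was by only 57.1% against 57.02%. With the lists as deposited, this order held in HOXB8 and HOXB9 only.

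At the anterior end, HOXB1, a hindbrain gene, was covered over 7.22%, 13.2% and 11.3% in SCAN1 and 11.3% and 20.4% in WT libraries. HOXB3 stayed at 1.28% to 4.70%, and HOXB2 and HOXB4 had no peak. HOXB13, a posterior gene set apart from the others and known for its role in the prostate, had 5.61%, 17.1% and 0% in SCAN1 and 0% and 8.52% in WT libraries, so neither group had a peak in all of its libraries in the equal lists. The lists as deposited gave 6.23% in SCAN1#2, a peak in all 3 SCAN1 libraries.

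In HOXA the peaks lay at HOTAIRM1, HOXA9, HOXA10 and HOXA11, with a stretch from HOXA4 to HOXA6 that was empty in the equal lists. HOXA11 (chr7:27181157-27185232), required for limb and uterus formation, was covered over 16.9%, 8.97% and 30.1% in SCAN1 and 14.02% and 19.96% in WT libraries. HOXA9, a gene of blood stem cells and leukaemia, had 19.5%, 0% and 15.2% in SCAN1 and 19.4% and 19.4% in WT libraries, and the lists as deposited gave 17.4% in place of 0%. HOXA10, also known from the uterus, had 7.49%, 12.3% and 10.9% in SCAN1 and 6.02% and 8.66% in WT libraries. HOXA2 (0% to 15.4%) and HOXA3 (0% to 2.10%) had peaks in some libraries, and HOXA7 had 5.87% in SCAN1#1 replicate 1 and 0 in the other 4. The lists as deposited gave HOXA7 5.87%, 5.58% and 0% in SCAN1 and 0% and 25.3% in WT libraries. They also gave HOXA4 11.6% in WT replicate 2 and HOXA6 7.88% in SCAN1#1 replicate 2.

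In HOXD the cover was confined to HOXD8 and HOXD11 among the 9 genes, each taken with its added 1 kb. HOXD8 (chr2:176129705-176132695) was covered over 0%, 7.15% and 0% in SCAN1 and 17.6% and 10.7% in WT libraries, and with the lists as deposited SCAN1#2 had 5.89%. HOXD11, a gene of the forelimb and digits, had 0%, 3.68% and 2.81% in SCAN1 and 5.14% and 3.12% in WT libraries. HOXD1, like the other 6 genes, had no peak. The HOXD region with a peak in most libraries, 4 of 5, overlapped no RefSeq gene (chr2:176105971-176106662). It reaches into the 1 kb added at HOXD11, and most of the HOXD11 cover came from it. Over its own sequence HOXD11 was covered over 0.590% on average, from 248 bases in WT replicate 1.

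By position, the middle and posterior genes were covered more than the anterior ones. Paralogue groups 5 to 8 had a mean of 17.4% over the 5 libraries (11 genes, 9 with a peak), groups 9 to 13 had 14.02% (16 genes, 10 with a peak) and groups 1 to 4 had 3.77% (12 genes, 6 with a peak). Among single groups, group 9 was highest, at 36.6% (29.5% to 44.8% over libraries), followed by group 6 at 23.1%, group 7 at 19.9% and group 8 at 16.8%, whereas neither gene of group 12 had a peak. This order was not shared by the clusters. Groups 5 to 8 averaged 28.2% in HOXB and 23.4% in HOXC but 0.391% in HOXA. There groups 1 to 4 averaged 5.07% and groups 9 to 13 averaged 10.4%. The long genes HOXA3 (45574 bases), HOXB3 (41372 bases) and HOXC4 (39143 bases) are all in groups 1 to 4. HOXC4, HOXC5 and HOXC6 share a block but averaged 9.93%, 19.6% and 25.2%, and the position values were not adjusted for gene length. With few genes to a group and shared peaks, the position values were not tested.

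Promoter windows of RefSeq (GRCh38.p14, 250 bases before to 50 bases after the start of transcription) were found for 20 of the 39 HOX genes, 26 distinct windows in all. Most belong to the sparsely covered clusters, 16 to HOXA and 8 to HOXD, with 1 to HOXB1 and 1 shared by HOXC4 and HOXC5, so they say little of the covered HOXB and HOXC genes. A peak touched 4 windows in at least 1 library (15.4%) and 0 in all 5, compared with 23.3% and 8.77% of the 34789 distinct promoter windows of all genes. The HOXA11 window was covered over 0%, 14% and 100% in SCAN1#1 replicates 1 and 2 and SCAN1#2 and over 100% and 26% in WT replicates 1 and 2. The window shared by HOXC4 and HOXC5 had 7.33%, 0% and 0% in SCAN1 and 100% and 0% in WT libraries, although the strong block described above began close by. Its first covered base lay 28, 62 and 232 bases after the gene start in SCAN1 and 516 bases before and 67 bases after it in WT replicates 1 and 2. The HOXD8 window had 0%, 54.3% and 0% in SCAN1 and 100% and 78% in WT libraries. A window of HOXA3 (chr7:27113793-27114092) had 0%, 0% and 100% in SCAN1 and 0% and 0% in WT libraries.

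The 4 HOX windows with a peak held a median of 20 CpG (13 to 34) and the 22 without one 22.5 (0 to 44), beside a median of 27 in the windows of all genes with a peak in all 5 libraries and 8 in those without a peak. A run of 5 or more G (GGGGG, on the strand of the gene) was present in 50% of the 26 HOX windows and 38.9% of all promoter windows. The letters TATAAA were present in 11.5% and 7.34%. Of the windows described above, all but that of HOXA3 are shown with that of HOXA13, which has the most CpG and no peak. They are written 5′ to 3′ along each gene with every CpG in capitals. They are HOXC4 and HOXC5 (chr12:54016638-54016937, plus strand, 15 CpG), HOXA11 (chr7:27185183-27185482, minus strand, 13 CpG), HOXD8 (chr2:176129455-176129754, plus strand, 34 CpG) and HOXA13 (chr7:27200042-27200341, minus strand, 44 CpG).
HOXC4: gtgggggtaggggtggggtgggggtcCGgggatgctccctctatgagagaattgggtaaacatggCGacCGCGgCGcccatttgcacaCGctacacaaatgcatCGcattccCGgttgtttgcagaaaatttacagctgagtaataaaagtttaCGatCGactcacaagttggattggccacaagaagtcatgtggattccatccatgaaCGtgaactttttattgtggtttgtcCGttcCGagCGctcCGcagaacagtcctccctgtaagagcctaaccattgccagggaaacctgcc
HOXA11: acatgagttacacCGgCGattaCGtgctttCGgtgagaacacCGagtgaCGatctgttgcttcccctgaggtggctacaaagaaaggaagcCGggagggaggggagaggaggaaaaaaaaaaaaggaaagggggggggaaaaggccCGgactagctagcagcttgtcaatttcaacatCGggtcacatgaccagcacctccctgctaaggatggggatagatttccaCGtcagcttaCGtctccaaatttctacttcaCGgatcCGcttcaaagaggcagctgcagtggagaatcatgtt
HOXD8: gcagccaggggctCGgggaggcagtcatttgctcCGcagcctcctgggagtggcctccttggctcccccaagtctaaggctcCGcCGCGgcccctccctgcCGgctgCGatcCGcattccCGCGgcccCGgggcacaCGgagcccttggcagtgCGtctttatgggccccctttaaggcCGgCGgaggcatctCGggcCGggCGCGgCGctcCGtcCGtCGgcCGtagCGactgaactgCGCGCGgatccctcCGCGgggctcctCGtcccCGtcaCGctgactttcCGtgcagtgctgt
HOXA13: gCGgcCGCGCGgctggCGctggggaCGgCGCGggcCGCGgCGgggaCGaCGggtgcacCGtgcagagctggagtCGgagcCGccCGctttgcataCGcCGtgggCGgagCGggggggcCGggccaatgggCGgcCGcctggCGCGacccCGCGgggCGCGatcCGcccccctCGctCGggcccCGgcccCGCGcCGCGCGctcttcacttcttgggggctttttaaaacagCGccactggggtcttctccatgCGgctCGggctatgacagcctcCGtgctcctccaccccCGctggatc

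The noncoding RNA genes of the clusters included the most covered sequences of the clusters. Of 18 long noncoding RNA genes, 12 had a peak in at least 1 library and 7 in all 5. HOXC-AS1, which lies beside HOXC9, was covered over 88.7%, 89.9% and 69.4% in SCAN1 and 100% and 100% in WT libraries, and over its own sequence without the added 1 kb it was at 100% in all 5. HOXB-AS4 had 92.1%, 95.3% and 72.3% in SCAN1 and 94.997% and 91.5% in WT libraries, and HOXC-AS2 had 82.4% to 90.6% over the 5 libraries. HOTAIRM1, a noncoding RNA gene of the HOXA start, had 18.4%, 37.3% and 29.5% in SCAN1 and 23.7% and 21.8% in WT libraries. HAGLR, HAGLROS, HOXA-AS2, HOXB-AS1, HOXB-AS2 and HOXD-AS2 had no peak.

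HOTAIR, a HOXC noncoding RNA studied as a partner of chromatin regulators, was covered over 3.07%, 14.5% and 17.5% in SCAN1 and 29.4% and 32.9% in WT libraries. The mean was 11.7% ± 7.61 in SCAN1 and 31.1% ± 2.497 in WT libraries (SD, n = 3 and 2), and an exact two-sided permutation test gave p = 0.1, the smallest that its 10 splits allow, or 0.8 after Benjamini-Hochberg adjustment over 12 genes. HOXC-AS3 had 30.5%, 0% and 0% in SCAN1 and 61.6% and 31.8% in WT libraries (exact permutation test, p = 0.2, adjusted 0.8). SCAN1 and WT did not overlap in 3 of the 12 noncoding genes, HOTAIR, HOXC-AS1 and HOXC-AS3, all lower in SCAN1 and all in HOXC. Over all 8515 long noncoding RNA genes with a peak in any library, 5.28% did not overlap and were lower in SCAN1 and 5.59% were higher. The 3 HOXC genes lie close together, and HOTAIR overlaps HOXC11. For HOXC-AS1 the groups differed only in the added 1 kb, since its own sequence was at 100% in each library. HOXC-AS3 shares a merged region with HOXC10 (chr12:53983888-53985587), and its zeros are values of the equal lists.

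The microRNA genes of the clusters split sharply. The miR-196 family, which targets HOX transcripts, has a gene in each of HOXA, HOXB and HOXC. The hairpin of MIR196A1 in HOXB (chr17:48632490-48632559) was covered over 100% in all 5 libraries, being inside the long HOXB9 region. The hairpins of MIR196A2, MIR196B, MIR10A, MIR10B and MIR615 were at 0 in all 5. MIR196A1 and MIR196A2 encode the same mature miR-196a-5p, and miR-196b-5p shares its seed, so equal product sequences came from covered and uncovered loci. The mature sequences from RefSeq are shown with that of miR-10a-5p, whose seed differs, 5′ to 3′ with the seed (bases 2 to 8) in capitals.
hsa-miR-196a-5p: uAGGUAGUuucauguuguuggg
hsa-miR-196b-5p: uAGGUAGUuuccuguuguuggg
hsa-miR-10a-5p: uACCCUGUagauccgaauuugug

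The comparison of SCAN1 with WT asks whether the TDP1 change alters where hybrids form. No HOX gene passed the test. In limma over the 8471 protein-coding genes covered over 2% or more on average, 0 genes were called higher and 0 lower at an adjusted p of 0.05 (0% of tested genes in each direction), and the lowest adjusted p was 0.358. At an unadjusted p of 0.05, 0 HOX genes were higher (1.94% of all tested genes) and 1 was lower, HOXD8 (1.55% of all tested genes). The coverage filter kept 23 of the 39 HOX genes, 5 of HOXA, 8 of HOXB, 8 of HOXC and 2 of HOXD.

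Of the 23 tested HOX genes, 5 had a higher mean in SCAN1 (51.5% of all tested genes) and 18 a lower one (48.5% of all tested genes). The filter on mean coverage and the shared peaks bear on these counts, which are descriptions. The median difference of the 23 was −5.28 points of percent covered, beside 0.08 for all tested genes. Over all 39 genes the mean covered share was 10.5% ± 2.02 in SCAN1 and 13.8% ± 3.83 in WT libraries (SD, n = 3 and 2). The difference of −3.39 points was −3.76 points in experiment 1, and in experiment 2 it was −1.84 for SCAN1#1 and −1.85 for SCAN1#2. It rested in large part on WT replicate 1, with −0.678 without that library and −6.09 without WT replicate 2.

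HOXC had the largest difference in points. Its 9 genes averaged 18.7% ± 2.78 in SCAN1 and 27.7% ± 9.45 in WT libraries (SD, n = 3 and 2), a difference of −9.02 points that was −12.5, −3.97 and −3.92 within experiments. Leaving out WT replicate 1 gave −2.34, leaving out WT replicate 2 gave −15.7, and a block for experiment gave −7.61. The other differences were −2.74 points for HOXB, −0.885 for HOXA and −1.52 for HOXD. That of HOXB turned to 2.26 without WT replicate 1 and was −7.74 without WT replicate 2, −5.71 without SCAN1#1 replicate 1 and −0.565 without SCAN1#2. That of HOXA was 0.0694 without SCAN1#1 replicate 2 and between −1.70 and −0.0652 without each of the other libraries.

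Counted within experiments, 9 HOX genes were lower in SCAN1 in all 3 comparisons (15.8% of all tested genes) and 2 were higher (19.4% of all tested genes). The 2 comparisons of experiment 2 share their WT library. The lower ones were HOXC4, HOXC5, HOXC6, HOXC9, HOXC10, HOXC11, HOXB1, HOXB7 and HOXD8, and the higher ones were HOXB6 and HOXA10. With the lists as deposited the count was again 9 lower, with HOXA2 in place of HOXB7, and 2 higher, HOXA10 and HOXC13, beside 14.6% and 16.7% of all tested genes. HOXB6 then had −28.3 points for SCAN1#2. SCAN1 and WT libraries did not overlap in 2 genes, HOXC11 and HOXD8, both lower in SCAN1 (6.86% of all tested genes), and in 0 genes that were higher (9.48% of all tested genes). With the lists as deposited 6 genes were lower without overlap (5.7% of all tested genes), HOXC4, HOXC5, HOXC6 and HOXC9 besides these, the first 3 sharing their peaks. Again 0 were higher without overlap (8.43% of all tested genes).

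HOXC11 differed by −17.0 points (SE 6.89, 95% interval −34.3 to 0.316; limma, adjusted p = 1), and HOXD8 by −11.7 (SE 3.35, interval −20.2 to −3.31; adjusted p = 1). HOXC10 differed by −18.2 points (SE 10.4), HOXC6 by −11.0 (SE 7.66), HOXC9 by −9.16 (SE 6.55) and HOXB1 by −5.28 (SE 4.07). Leaving out WT replicate 1 gave −6.27 for HOXC10, −2.395 for HOXC6, −1.07 for HOXC9 and −9.85 for HOXB1. Leaving out WT replicate 2 gave −30.04, −19.5, −17.3 and −0.706 for these genes in the same order. HOXB6 was 11.8 points above WT (SE 12.1) in the equal lists and at −1.53 in the lists as deposited, and 5.84 without WT replicate 2, 17.8 without WT replicate 1, 19.9 without SCAN1#2 and 7.73 and 7.77 without SCAN1#1 replicate 1 or 2. HOXA10 was 2.92 points above WT (SE 2.49), and 1.60 without WT replicate 1 and 1.87 without SCAN1#1 replicate 2. HOXC8 had a difference of −17.3 points (SE 16.3), which was 7.61 without WT replicate 1, since its 60.5% there stood far above the other 4 libraries. Every tested HOX gene had an adjusted p of 1, and differences up to the size of these intervals were not detectable with 3 and 2 libraries.

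**Figure D4:**
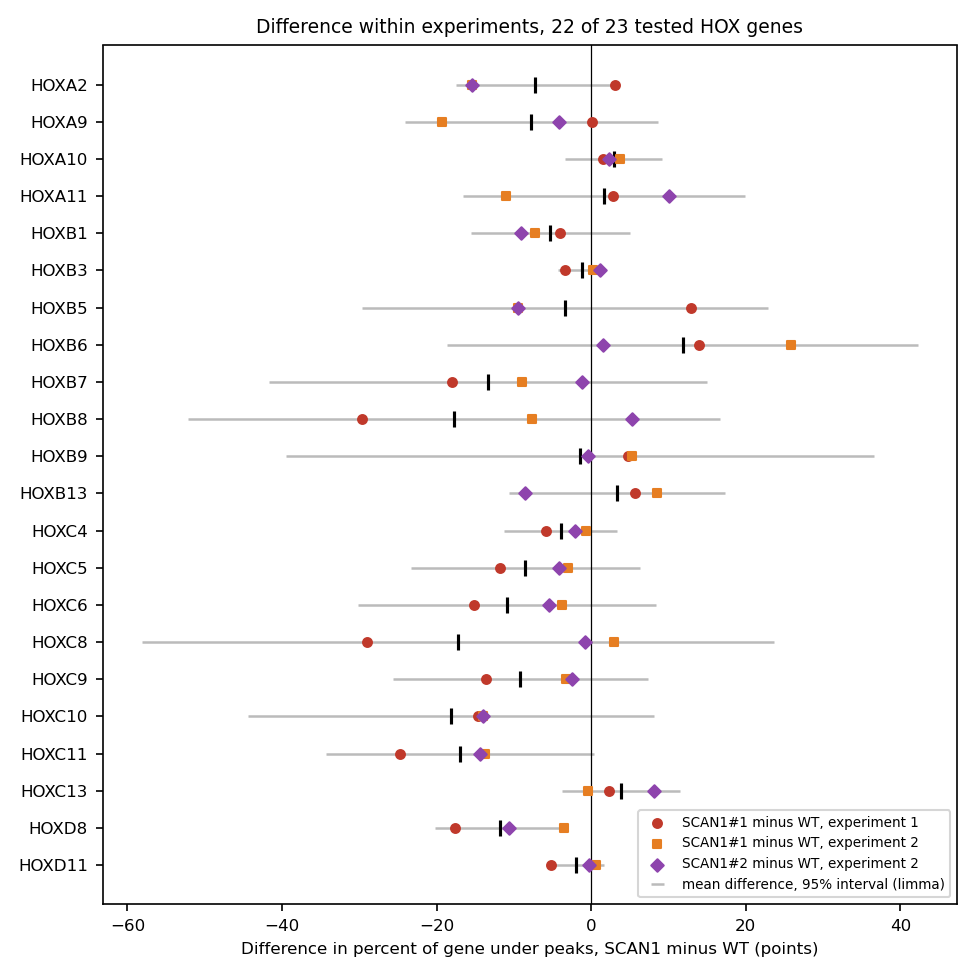
Difference in percent covered from WT of the same experiment for 22 of the 23 tested HOX genes, with 1 point for each of the 3 comparisons (SCAN1#1 in experiments 1 and 2, SCAN1#2 in experiment 2) and grey bars for limma's 95% interval of the mean SCAN1 minus WT difference. All 3 points lie below 0 for 9 genes, 6 of them in HOXC, and above 0 for HOXB6 and HOXA10.

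The experiments were also set side by side within each genotype, without a test. In SCAN1#1, 14 of the 23 tested genes were higher in experiment 1 (54% of all tested genes) and 9 were lower (44.1%), with a mean difference of 5.68 points, beside 3.38 over all tested genes. In WT cells, 15 were higher in experiment 1 (60.3% of all tested genes) and 7 lower (37.6%), with a mean of 9.16 points, beside 5.12 over all tested genes. Experiment 1 holds 1 of 3 SCAN1 and 1 of 2 WT libraries. The experiments differ in antibody lot, and lot and experiment cannot be told apart. The lowest −log10 p among the peaks used was also lower in experiment 1 (3.87 in SCAN1#1 and 6.13 in WT) than in experiment 2 (9.92 in SCAN1#1 and 7.69 in WT), and its part in these differences was not tested.

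Genes that act with HOX proteins or on HOX chromatin were covered in another pattern. All 11 genes of TALE cofactors, homeodomain proteins that bind DNA together with HOX proteins, had a peak in at least 1 library, 6 of them in all 5. PBX2 was covered over 91.0%, 100% and 88.7% in SCAN1 and 89.3% and 92.6% in WT libraries, followed by MEIS3 (12.1% to 22.4%) and TGIF1 (14.02% to 16.1%). Of 28 Polycomb genes, 25 had a peak in all 5 libraries. PHF1 (93.6% to 100%), RING1 (80.7% to 94.8%), PCGF1 (69.6% to 100%) and CBX6 (61.1% to 90.8%) were the most covered. Of 17 Trithorax and MLL complex genes, 13 had a peak in all 5, led by the methyltransferase gene KMT2B, with 72.5%, 74.2% and 33.1% in SCAN1 and 73.6% and 51.0% in WT libraries. Of these lists 5, 20 and 12 genes were tested between SCAN1 and WT, and limma called 0 in each. At an unadjusted p of 0.05, 2 Polycomb genes were higher, PHC1 and PHC2 (1.94% of all tested genes). Lower was 1, CBX8 (1.55% of all tested genes), and 0 genes of the other lists passed in either direction.

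Other homeobox genes related to the HOX genes, such as the CDX, DLX, EN and MSX genes, were almost free of peaks. Of 23 such genes 6 had a peak in any library and 1, MEOX1, in all 5, at 0.926% to 4.64%. EVX1 and EVX2, which lie next to HOXA13 and HOXD13, had none. The list averaged 0.104% to 0.778% over libraries, below the HOXB and HOXC means in each library.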

How the data were processed

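Per the labels, 5 DRIP libraries of U2OS cells (3 SCAN1, 2 WT) have peak lists in the narrowPeak layout, and the 5 input samples were not used here. Per the submitters' processing notes, the build was hg38 and the tools included MACS3 3.0.0a6 and BWA 0.7.17-r1188, beside SAMtools 1.9, FastQC 0.11.5 and deepTools 3.5.1. What each did, the control and the calling options are not stated there. Per the layout of the deposited files, each peak has a score, a fold enrichment (a ratio over the caller's background), a −log10 p and a −log10 q, and each library has a list of its own. Equal lists hold the 63456 peaks of highest deposited −log10 p in each library.

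From these lists the percent of each RefSeq gene under peaks was computed, with 1 kb added at both ends, and protein-coding genes covered over 2% or more on average were compared with limma 3.58.1 (lmFit, eBayes with trend, R 4.3.3, Benjamini-Hochberg adjustment over all tested genes, threshold 0.05). The script was tested on simulated data. Python 3.11.15, numpy 2.4.6, pandas 2.3.3 and matplotlib 3.10.9 were used. Sequences are RefSeq's for GRCh38.p14, and coordinates are 1-based. The members and gene lists were chosen with earlier results of these data known. Values in every library are given for the 3 most covered genes of each cluster and for genes with 1 sign in all 3 within-experiment comparisons, up to 5 a direction by the smallest difference, and further HOX genes are given for completeness. The values of 1 HOX gene are not reported here, while it stays in all counts and means of the clusters. Replicate numbers mark the experiment in the labels, and deviations of same-numbered SCAN1 and WT libraries from their group means correlated over tested genes (r = 0.612, 0.325 and 0.470 for the 3 pairs). The deviations of the 2 WT libraries mirror each other, so these 3 values are not independent of one another. The alternatives were the lists as deposited, a −log10 q of at least 5, other gene windows, filters and scales, experiment as a block and each library left out.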

Additional observations from a re-analysis of the deposited data

Results flagged for a closer look

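Some HOX genes and 1 cluster mean differed from WT in opposite directions in the 2 experiments or the 2 SCAN1 lines, and none of these contrasts was tested. The values are from the equal lists. Between experiments, HOXA9 was 0.157 points above WT in experiment 1, whereas in experiment 2 SCAN1#1 was −19.4 and SCAN1#2 −4.12 points from WT. With the lists as deposited SCAN1#1 was −1.96 points there. HOXA2 had 3.03 points in experiment 1 and −15.4 points for both lines in experiment 2, and HOXB5 had 12.8 points in experiment 1 and −9.48 for both lines in experiment 2. Neither line had a peak at HOXA2 or HOXB5 there in the equal lists, while in the lists as deposited SCAN1#2 had 10.5% and 14.1%, and HOXA2 was then below WT in all 3 comparisons. HOXB3 ran the other way, with −3.41 points in experiment 1 and 0.265 and 1.19 points for SCAN1#1 and SCAN1#2 in experiment 2. The mean over the HOXA cluster was 0.608 points in experiment 1 and −3.61 and −0.469 points for SCAN1#1 and SCAN1#2 in experiment 2. Between lines, HOXB8 had 5.22 points for SCAN1#2 and −29.7 and −7.66 points for SCAN1#1 in experiments 1 and 2. HOXB9 had −0.444 points for SCAN1#2 and 4.78 and 5.23 points for SCAN1#1, and HOXB13 had −8.52 points for SCAN1#2 and 5.61 and 8.57 points for SCAN1#1. With the lists as deposited, HOXB8 and HOXB9 no longer divided by line, as SCAN1#1 had −29.7 and 8.995 points at HOXB8 and −4.69 and 19.2 points at HOXB9.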

How the results depend on the processing

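Of 336 values recomputed under other settings, 6 moved beyond the spread between libraries or, for counts, by over 1.5 times. That spread was the SD within genotypes for differences and the SD over all 5 libraries for mean coverage of a cluster. Further, 11 differences of single genes turned direction, and 3 cluster differences turned sign within their spread. These 3 were HOXB without WT replicate 1 (2.26) and HOXA without SCAN1#1 replicate 2 (0.0694) or for genes without added sequence (0.0828). With the lists as deposited the HOXA mean was 7.44% in place of 5.75%, and HOXB6 was at −1.53 points in place of 11.8. On the log2(percent + 1) scale limma called 3 genes higher and 1 lower, none of them HOX genes, against 0 and 0, and HOXA11 was at −0.0044 on that scale, against 1.64 points of percent covered. With a −log10 q of at least 5, HOXA11 was at −0.924. HOXB9, at −1.46 points, was at 2.19 over gene ends only. Requiring a peak of a library to cover at least 50% of a region left 8 regions in all 5 libraries, against 14. With experiment as a replicate block, HOXB9 was at 3.42 points, the mean over the 39 HOX genes was −2.66 points, limma again called 0 genes in either direction, and 298 and 220 genes had an unadjusted p under 0.05. Leaving out each library gave ranges of −15.7 to −2.34 points for HOXC, −4.07 to 6.48 for HOXA11, −15.4 to 12.5 for HOXB9 and −42.2 to 7.61 for HOXC8. HOXB9 turned positive without WT replicate 1 (12.5), SCAN1#2 (5.005) or SCAN1#1 replicate 2 (2.17), and HOXA11 turned negative without SCAN1#2 (−4.07) or WT replicate 1 (−1.33). The cause of these shifts was not tested. Peak lists without read counts limit what can be said of genes at 0.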
